A study of Mus musculus with 6 samples.

Results

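The IFIT, IFITM, Ifi44, Ifi27 and Ifi35 genes, which respond to interferon, were examined in whole mouse retinae at postnatal day 21, from animals with a double knockout of Rb1 and p107 (DKO) or a triple knockout that also removes Hells (TKO). Members were taken by symbol from the table of raw RNA-seq counts, and 9 of 10 listed genes were found among 24062 genes: Ifit1, Ifit2, Ifit3, Ifitm1, Ifitm2, Ifitm3, Ifi44, Ifi27 and Ifi35. The listed gene Ifit3b was found only under its older symbol I830012O16Rik, so its values are given beside the 9 and stay out of their counts. DKO retinae carried Chx10-Cre, Rb1 lox/lox and p107-/-, and TKO retinae carried the same alleles with Hells lox/lox, on a background given as C57BL/6 in the labels and as C57BL/6N in the methods of the study. There were 3 retinae of each genotype, and no wild-type or Hells-only retina was among them. A difference below is thus one between retinae that all lacked p107 and had lost Rb1 in the cells where Cre had acted. Chx10-Cre acts in retinal progenitors in a mosaic way, so that recombined and unrecombined cells lie in the same tissue, and cells that enter the retina from outside, such as microglia and endothelial cells, are not its target.

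Interferons bind receptors at the cell surface, JAK kinases phosphorylate STAT proteins, and a complex that contains IRF9 then binds the interferon-stimulated response element in promoters. IFIT proteins are cytoplasmic and bind viral RNA or translation factors, while IFITM proteins sit in membranes and hinder the fusion of enveloped viruses with the cell. IFI35 is a partner of NMI, IFI27 is a small hydrophobic protein of internal membranes, and IFI44 is a cytoplasmic protein. In the retina, microglia, endothelial cells, glia and neurons can all express such genes.

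The libraries held between 10343907 and 14203098 counts, and retinae of the same genotype varied beyond counting noise. The targeted gene Hells, a chromatin remodeler, was lower in the TKO retinae. It had 60.8, 68.4 and 83.4 normalized counts in the TKO retinae and 678, 523 and 395 in the DKO retinae, a log2 fold change of -2.91 (SE 0.225, edgeR quasi-likelihood adjusted p = 0.00359). The 8 markers of dividing cells given further on, which were not targeted, had a median log2 fold change of -2.65. The Hells count is therefore no separate check of the deletion, and what the deletion alone contributed to it was not tested. A normalized count is a count scaled by the size of its library, and all log2 fold changes are TKO over DKO, so that a negative value is a lower level in the TKO retinae. Libraries are named by genotype and replicate number below, so that TKO2 is TKO replicate 2. Rod markers were abundant in every library, as in retina, and their levels are given with those of other cell types further on.

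The interferon-stimulated response element was looked for in the promoter of each member, because it is the site through which these genes are known to respond. RefSeq promoters of GRCm38.p6, from 250 bases before to 50 after the transcription start, were available for 8 of the 9 members and for Ifit3b, with none for Ifi27. The core, which is GAAANNGAA followed by 1 more A, was read on both strands. It was found for 4 of the 8 members, Ifit1, Ifit3, Ifitm2 and Ifitm3, and in 3.44% of all 32851 windows. The member figure counts genes, whereas the share counts windows. The core was also in the Ifit3b window. Stretches with the matches are shown 5′ to 3′ on the strand of the gene, with the match in capitals. On this strand the IFIT genes carry the reverse complement, and the IFITM genes carry the core as spelled. Positions are counted from 1 at the first transcribed base in RefSeq. That base differs from the gene start in GENCODE, which gave the gene coordinates further on, so positions from those coordinates would shift.
Ifit1 (chr19:34640759-34640848, plus strand): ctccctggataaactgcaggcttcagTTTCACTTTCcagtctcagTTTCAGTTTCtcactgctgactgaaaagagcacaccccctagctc
Ifit3 (chr19:34583349-34583438, plus strand): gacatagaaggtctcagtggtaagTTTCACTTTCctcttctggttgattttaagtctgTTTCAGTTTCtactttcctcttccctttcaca
Ifit3b (chr19:34607745-34607834, plus strand): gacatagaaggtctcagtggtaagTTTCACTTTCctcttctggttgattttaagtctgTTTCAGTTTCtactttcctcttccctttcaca
Ifitm2 (chr7:140955962-140956051, minus strand): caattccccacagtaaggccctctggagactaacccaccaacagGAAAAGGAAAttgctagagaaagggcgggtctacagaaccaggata
Ifitm3 (chr7:141010713-141010742, minus strand): GAAAAGGAAActtctgaGAAACCGAAActg

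The Ifit1 window held matches at -104 to -95 and at -85 to -76, and the Ifit3 window held them at -156 to -147 and at -122 to -113. The 90 bases shown for Ifit3 and Ifit3b were identical. Ifitm2 had a single match, at -46 to -37. In Ifitm3 both matches lay just after the RefSeq start, at 3 to 12 and at 20 to 29. The shorter form GAAANNGAA, contained in the core, added Ifi44 and was in 8.56% of windows, and a longer form, with ACT after GAAANNGAA, was in Ifit1, Ifit3 and Ifitm3 and in 0.271% of windows. The gamma-activated sequence TTCNNNGAA, a STAT site added after seeing the data, was in Ifit2, Ifitm3 and Ifi35 and in 8.3% of windows. Ifi35 and Ifi44, called lower below, had no core match in the window searched, and a match or its absence is a description of these letters only.

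Of the 9 members, 6 were called lower in the TKO retinae and none higher, where a call needed an adjusted p of at most 0.05, a log2 change of 1 or more in size and 10 or more normalized counts on average. Over all 16904 genes tested, 4.38% were called lower. An adjusted p of at most 0.05, whatever the size, was reached by 8 of 9 members in the lower direction against 9.2% of all genes. In 8 of 9 members every TKO retina lay below every DKO retina, against 20.6% of all genes. The median log2 fold change of the members was -1.34, and that of all genes tested was -0.01. In tissue RNA, fewer cells of an expressing type and less RNA per cell cannot be told apart. All 9 members had enough counts to be tested.

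**Figure D1:**
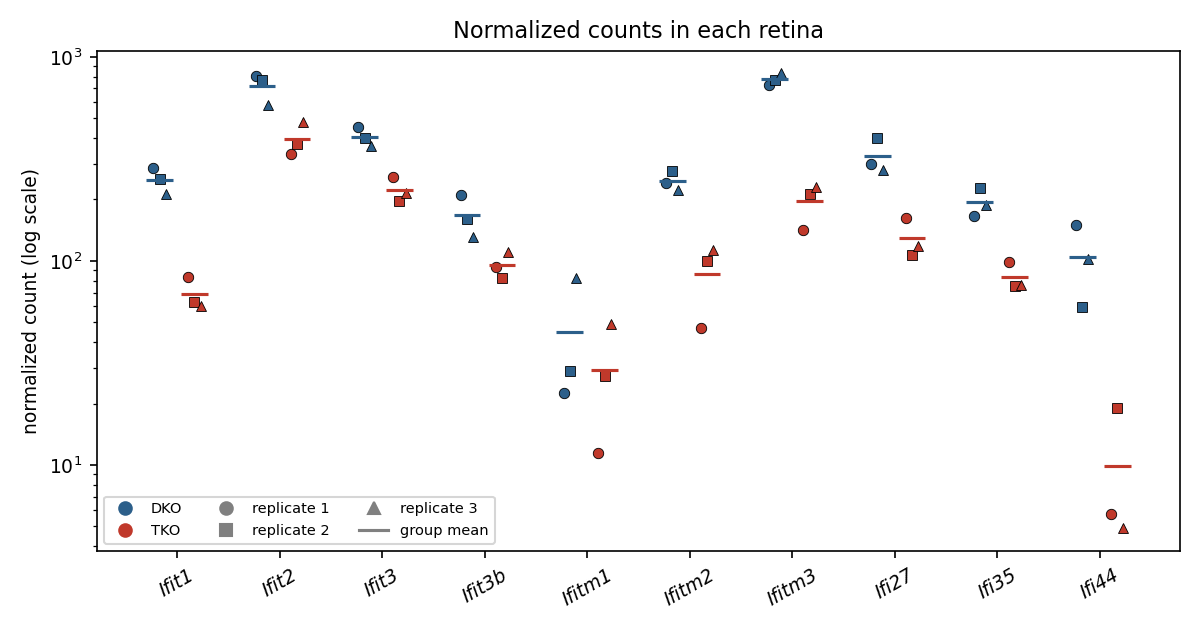
Normalized counts, on a log scale, of the 9 members and Ifit3b in each of the 3 DKO (blue) and 3 TKO (red) retinae, with the marker shape giving the replicate and the line the group mean. The groups are apart for every gene shown except Ifitm1, and Ifi44 has the lowest TKO values, from 4.91 to 18.9 against 59.5 to 151 in DKO.

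The IFIT genes lie side by side on chromosome 19, on the plus strand, with Ifit2 at chr19:34550694-34576419, Ifit3 at chr19:34583531-34588731, Ifit3b at chr19:34607970-34613401 and Ifit1 at chr19:34640871-34650009 (GRCm38). Ifit1, which binds viral RNA with an incompletely methylated cap, had 83.7, 63.1 and 60.1 normalized counts in the TKO retinae and 284, 253 and 213 in the DKO retinae. The groups did not overlap, and the lowest DKO retina stood well above the highest TKO retina. The means were 69.0 ± 12.8 and 250.2 ± 35.6 (SD, n = 3 each), which gave a log2 fold change of -1.86 (SE 0.185, 95% interval -2.28 to -1.43, adjusted p = 0.00464).

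Ifit2, an RNA-binding member of the family, had 335, 373 and 481 normalized counts in the TKO retinae and 802, 773 and 582 in the DKO retinae. The groups did not overlap, and TKO3 and DKO3 were the closest pair. The log2 fold change was -0.86 (SE 0.167, adjusted p = 0.0134), so Ifit2 fell but not by the size a call needs. With TKO2 left out the adjusted p was 0.0641, with DKO1 left out 0.0559 and with DKO2 left out 0.0603. With TKO3 left out, the log2 fold change was -1.02 and Ifit2 was called.

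Ifit3 had 259, 197 and 215 normalized counts in the TKO retinae and 453, 398 and 364 in the DKO retinae. It too fell without reaching the size for a call, with a log2 fold change of -0.86 (SE 0.140, adjusted p = 0.00879). Ifit3b, its near-identical neighbour, had 92.9, 82.1 and 110.4 normalized counts in TKO and 209.9, 161 and 131 in DKO. Its log2 fold change was -0.82 (SE 0.211, adjusted p = 0.0348). The adjusted p was 0.0962 with TKO1 left out, 0.126 with TKO2, 0.116 with DKO1 and 0.101 with DKO2. Of the 100-base stretches of the Ifit3 exons, 31.7% also occurred in Ifit3b, so the division of reads between the pair is uncertain.

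The balance between family members was compared within each library. The log2 ratio of Ifit1 to Ifit2 in the same library was -1.99, -2.55 and -2.99 in the TKO retinae and -1.49, -1.61 and -1.45 in the DKO retinae. The ratio of Ifit1 to Ifit3 was -1.62, -1.63 and -1.83 in TKO and -0.67, -0.65 and -0.77 in DKO, again without overlap. The mean differences were -0.99 for Ifit1 to Ifit2 and -0.99 for Ifit1 to Ifit3, and each had an exact two-sided permutation p of 0.1, the smallest that 3 against 3 retinae allows. The ratio of Ifit2 to Ifit3 overlapped between genotypes, with a mean difference of -0.0019 (exact permutation p = 1). Of 36 pairs of members, 15 had ratios that did not overlap between genotypes. With Benjamini-Hochberg adjustment over the 36 pairs, the exact permutation p of these 15 was 0.24. The pairs share members and are thus not independent of each other. How often ratios of other gene pairs failed to overlap was not tested, so the count of 15 has no background share beside it.

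The IFITM members lie together on chromosome 7, with Ifitm2 at chr7:140954837-140955987 and Ifitm3 at chr7:141009586-141010770 on the minus strand and Ifitm1 at chr7:140967221-140969825 on the plus strand. Ifitm3, the member best known for restricting influenza virus, had 142, 214 and 231 normalized counts in the TKO retinae and 726, 772 and 829 in the DKO retinae. The gap between the groups was wider than the spread within either. The means were 195.5 ± 47.0 and 776 ± 51.7 (SD, n = 3 each), which gave a log2 fold change of -1.99 (SE 0.169, 95% interval -2.38 to -1.60, adjusted p = 0.00378).

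Ifitm2 had 47.0, 99.99 and 113 normalized counts in the TKO retinae and 240.0, 276 and 223 in the DKO retinae. TKO1 was the lowest library, and the groups did not overlap. The log2 fold change was -1.51 (SE 0.281, adjusted p = 0.0122). With DKO1 left out the adjusted p was 0.0503, and with DKO2 left out it was 0.0574. Of its 100-base exon stretches, 34.9% recurred in other annotated genes, most of them in the overlapping gene Gm45717, so its reads may not all have been counted for it.

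Ifitm1 had 11.5, 27.4 and 49.1 normalized counts in the TKO retinae and 22.6, 28.9 and 82.9 in the DKO retinae, and the groups overlapped. It was the only member that did not pass the test, with a log2 fold change of -0.62 (SE 0.607, 95% interval -2.01 to 0.77, adjusted p = 0.511). The value rested on DKO3, since with that library left out it was 0.18 (adjusted p = 0.852). With TKO1 left out it was -0.24 and with TKO3 left out -1.19, and neither passed the test. The interval takes in changes as large as that of Ifitm2 or Ifitm3, so a difference was not detectable at this depth and spread.

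Ifitm7, a relative on another chromosome, had 462, 541 and 546 normalized counts in TKO and 447, 462 and 497 in DKO. Its log2 fold change was 0.14 (95% interval -0.09 to 0.37, adjusted p = 0.371), an interval that leaves out any fall of the size seen for Ifitm2 and Ifitm3. Ifitm10 had a log2 fold change of -0.27 (adjusted p = 0.585). Ifitm5, a bone gene, had no count in the TKO retinae and 15, 1 and 0 counts in the DKO retinae (adjusted p = 0.208).

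**Figure D2:**
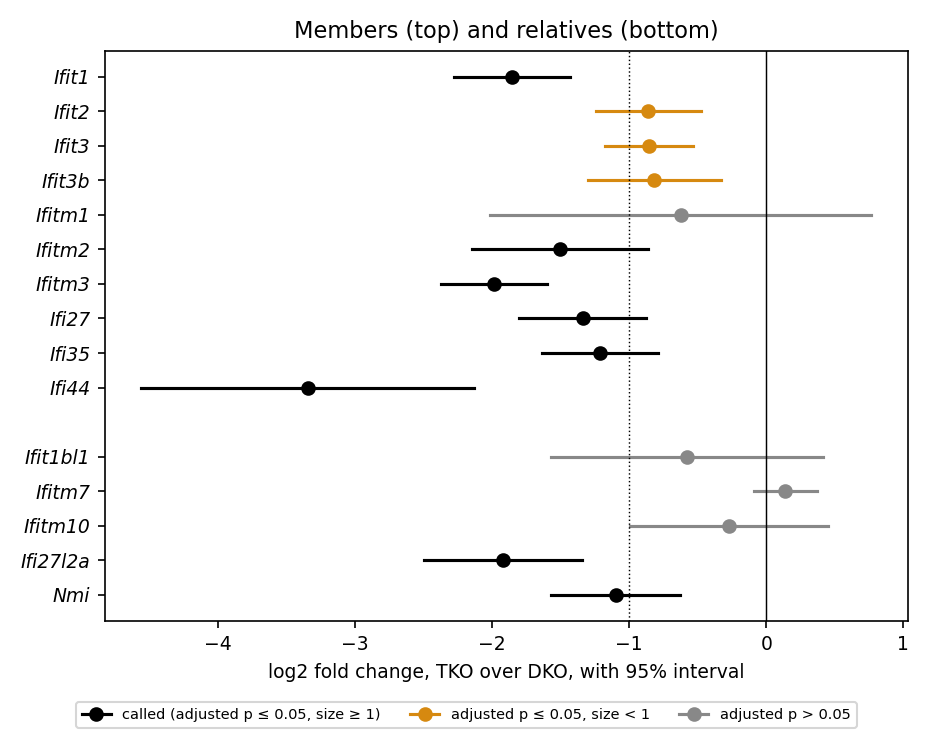
Log2 fold change of TKO over DKO with its 95% interval for the 9 members and Ifit3b (top) and for 5 relatives with a mean count of at least 10 in the fit and counts in both genotypes (bottom), where the dotted line marks -1. Ifi44 lies farthest left at -3.35 with the interval -4.56 to -2.13, and the intervals of Ifitm1, Ifit1bl1, Ifitm7 and Ifitm10 cross 0.

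Ifi44 (chr3:151730922-151749960, minus strand) had the largest fold change of the members. It had 5.73, 18.9 and 4.91 normalized counts in the TKO retinae and 151, 59.5 and 102 in the DKO retinae. The TKO values stand for 5, 18 and 4 counts, so counting error is large there, and the DKO retinae differed among themselves more than for other called members. The log2 fold change was -3.35 (SE 0.529, 95% interval -4.56 to -2.13, adjusted p = 0.00821), and it was -4.25 with TKO2, the highest TKO library, left out. Its relative Ifi44l had no count in any TKO retina and 35, 0 and 71 counts in the DKO retinae. Against the 3 counts per library that a count of 0 allows, its TKO level was at least 9.17-fold lower than the DKO mean, but DKO2 was also at 0 and the test was not passed (adjusted p = 0.0747).

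Ifi27 (chr12:103434211-103440239, plus strand) had 162, 107.4 and 118 normalized counts in the TKO retinae and 300.2, 400.1 and 279 in the DKO retinae. The groups did not overlap, and the log2 fold change was -1.34 (SE 0.201, adjusted p = 0.00747). Its relative Ifi27l2a was also called lower, with 25.2, 28.4 and 17.2 normalized counts in TKO and 84.7, 104 and 81.2 in DKO, a log2 fold change of -1.92 (SE 0.252, adjusted p = 0.0068). Whether the pair differed in fold was not tested.

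Ifi35 (chr11:101448407-101458698, plus strand) had 98.6, 75.8 and 76.1 normalized counts in the TKO retinae and 166, 228 and 187 in the DKO retinae. No library of one group reached the range of the other. The log2 fold change was -1.21 (SE 0.185, adjusted p = 0.00758). Nmi, which encodes the partner protein of IFI35, had 41.3, 48.4 and 61.4 normalized counts in TKO and 96.9, 115 and 111 in DKO, with a log2 fold change of -1.10 (SE 0.206, adjusted p = 0.0123). Both partners were thus called lower.

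Of the 10 relatives listed, 8 had enough counts to test and 2, Ifi27l2a and Nmi, were called lower. The IFIT relatives Ifit1bl1, listed as Gm14446, and Ifit1bl2, listed as 2010002M12Rik, had log2 fold changes of -0.58 (adjusted p = 0.389) and -0.17 (adjusted p = 0.801) at under 26 normalized counts in every retina. Ifitm6 had 2, 4 and 0 counts in the DKO retinae and none in TKO, and Ifi27l2b had no count.

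Per kilobase of exon, Ifitm3 was the most abundant member in the DKO retinae, with 1140 ± 76.3 normalized counts per kb (SD, n = 3). Ifitm2 followed at 376 ± 41.3, and then Ifit3 at 232 ± 25.5, Ifi27 at 222 ± 44.1 and Ifit2 at 183 ± 30.4. The lower levels were Ifi35 at 112 ± 18.2, Ifit1 at 94.2 ± 13.4, Ifit3b at 83.7 ± 19.8, Ifitm1 at 40.9 ± 30.3 and Ifi44 at 17.0 ± 7.43. The DKO ranges did not overlap between Ifitm3 and Ifitm2, between Ifitm2 and Ifit3, or between Ifit2 and Ifi35, while other neighbours in this order overlapped. The order depended on the length used: per kb of the longest transcript Ifi27, at 334, stood above Ifit3 and overlapped Ifitm2, and Ifit2 overlapped Ifi35. In the TKO retinae Ifitm3 was still first, at 288 ± 69.3 per kb, and Ifi44 last, at 1.61, but Ifit1, at 26.0, stood below Ifit3b at 47.6 and beside Ifitm1 at 26.8.

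Ifitm3 gave 25.4% ± 3.12 of the counts of the 9 members in the DKO retinae and 15.9% ± 3.06 in the TKO retinae (SD, n = 3 each). Ifit2 gave 23.4% ± 2.70 in DKO and 32.2% ± 3.25 in TKO, which made it the member with the largest share there. In the same library, the log2 ratio of Ifit2 to Ifitm3 was 1.23, 0.80 and 1.06 in TKO and 0.14, 0.0016 and -0.51 in DKO, a mean difference of 1.15 (exact permutation p = 0.1, the smallest possible). The ratio of Ifit1 to Ifitm3 overlapped between the genotypes, with a mean difference of 0.16 (exact permutation p = 0.8).

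The other genes of the interferon pathway were taken by role from a list of 96 genes that holds no member. Interferon ligands could not be compared: 18 of 21 had no count, and Ifnb1, Ifnz and Ifng together had 0 counts in the TKO retinae and 5 in the DKO retinae. Of 6 receptor genes none was called, with a median log2 fold change of -0.30. Ifnar2, a chain of the type I receptor, passed the adjusted p at -0.72 (SE 0.187, adjusted p = 0.0355), while Ifnar1, the other chain, stood at -0.14 (adjusted p = 0.192). The remaining receptor genes were Ifngr1 at 0.22 (adjusted p = 0.332), Ifngr2 at -0.19 (adjusted p = 0.142), Il10rb at -0.42 (adjusted p = 0.165) and Ifnlr1 at -0.72 (adjusted p = 0.501).

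Of 7 signal transducers none was called, and their median was 0.010. Irf9, a DNA-binding protein of the complex that acts on the response element, was the only one past the adjusted p. It had 409, 416 and 390.2 normalized counts in the TKO retinae and 683, 622 and 761 in the DKO retinae, a log2 fold change of -0.77 (SE 0.0994, adjusted p = 0.00677). Stat2 was at -0.08 (adjusted p = 0.628). Jak1, Jak2, Tyk2 and Stat3 had log2 fold changes between 0.010 and 0.11, and none passed the test.

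Of 6 interferon regulatory factors, 4 were called lower. Irf7, which drives the amplification of the type I response, had 156, 132 and 113 normalized counts in TKO and 359.5, 312 and 287 in DKO, a log2 fold change of -1.26 (adjusted p = 0.00621). Irf1 was at -1.08 (adjusted p = 0.0181), Irf5 at -1.08 (adjusted p = 0.0217) and Irf8, a factor of myeloid cells, at -1.06 (adjusted p = 0.0405). Irf3, which acts upstream of interferon production, rose by 0.42 (adjusted p = 0.0305), and Irf2 was at 0.13 (adjusted p = 0.52). Of 6 negative regulators, Usp18, which removes ISG15 from proteins and blocks the receptor, fell by 1.95 (adjusted p = 0.0078) and Ptpn6 by 1.16 (adjusted p = 0.0311). Ptpn2 rose by 0.50 (adjusted p = 0.00901) and Pias1 by 0.40 (adjusted p = 0.0196). In all, 4 of the 6 were below 0, and the median log2 fold change of the 6 was -1.30.

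Of 10 nucleic acid sensor genes 7 were called lower, among them Ddx58, which encodes the RNA sensor RIG-I, at -1.13 (adjusted p = 0.0048) and Zbp1, a sensor of Z-form nucleic acid, at -2.08 (adjusted p = 0.00698). The most abundant genes of the list, the adaptor gene Mavs and the kinase gene Tbk1, were at 0.25 (adjusted p = 0.297) and 0.08 (adjusted p = 0.597). Of 40 other interferon-stimulated genes 33 were called lower, none higher, and their median was -1.52. B2m, the light chain of MHC class I, was at -1.54 (adjusted p = 0.00193), H2-K1, a heavy chain, at -1.51 (adjusted p = 0.00473) and Oasl2 at -1.78 (adjusted p = 0.000362). In all, 46 of the 75 pathway genes tested were called lower and none higher, and 30 were called lower with TKO2 left out.

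**Figure D3:**
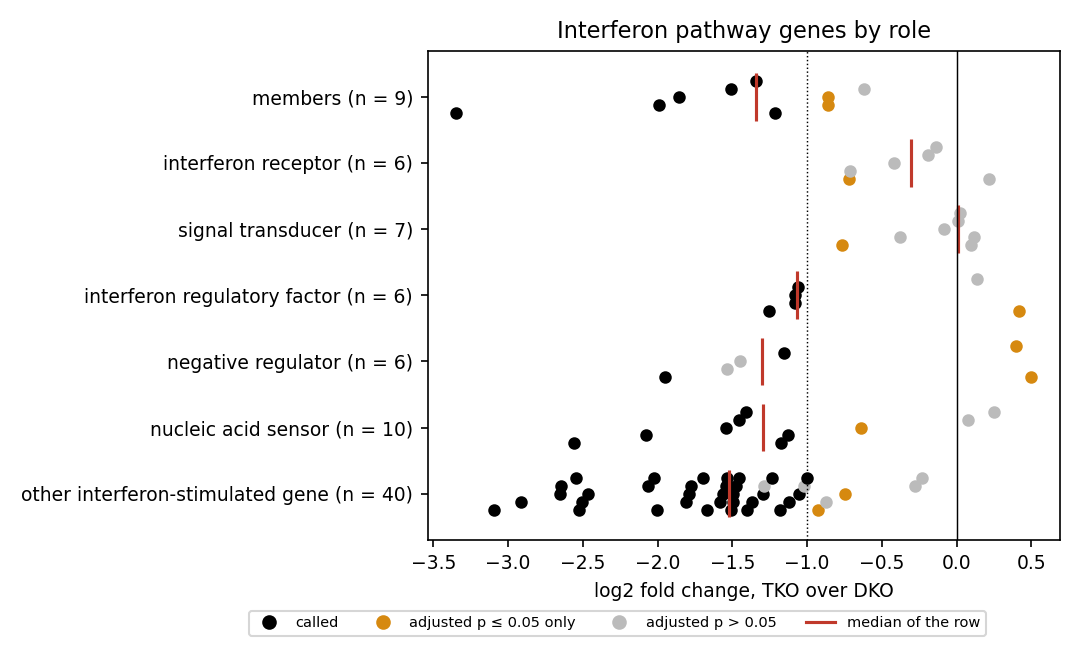
Log2 fold change of TKO over DKO for the 9 members and for the tested pathway genes by role, 1 point per gene, with the color giving the call, the red line the median of the row and the dotted line -1. The medians of receptors (-0.30) and transducers (0.010) lie nearest 0. Those of the members (-1.34) and other interferon-stimulated genes (-1.52) lie beyond -1. So do those of interferon regulatory factors (-1.07), negative regulators (-1.30) and nucleic acid sensors (-1.29).

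Markers of other cells moved with genotype as well. Of 15 microglia markers, 8 were called lower in the TKO retinae (Cx3cr1, Aif1, Csf1r, C1qa, C1qb, C1qc, Fcrls and Ptprc), with a median of -1.09 and no marker at 0. Their summed level was 2095, 2718 and 3839 normalized counts in TKO and 5784, 6918 and 4516 in DKO. P2ry12, a marker of resting microglia, was at 0.03 (adjusted p = 0.945). Per 100 normalized counts of these markers, the 9 members summed to 54.6, 43.3 and 35.1 in TKO and 54.3, 46.1 and 63.4 in DKO. The groups overlapped on that scale through TKO1 alone, and other scales are given below. The part of microglia in the members' change was not tested.

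Of 11 endothelial markers none was called, and their median was 0.46, with 10 of 11 above 0 and Pecam1 past the adjusted p in the higher direction (adjusted p = 0.0336). Their summed level was 5745 to 7086 in TKO and 5790 to 7327 in DKO. Per 100 endothelial counts the members summed to 19.5, 20.5 and 19.0 in TKO and 42.9, 55.1 and 44.2 in DKO. None of 6 pericyte markers was called, and of 8 Muller glia markers 1 was called higher, with sums of 74690 to 80060 in TKO and 65290 to 71720 in DKO. The Muller glia markers were divided: 3 passed the adjusted p in the higher direction and 1 in the lower, and 4 of 8 were below 0. Of 8 gliosis genes 1 was called lower (sums of 4379 to 7551 against 7356 to 23590). Per 100 gliosis counts the members summed to 26.1, 15.9 and 17.8 in TKO and 32.7, 43.3 and 12.1 in DKO. The groups overlapped there as well, through DKO3 alone. Of 14 lymphocyte and granulocyte genes 5 had enough counts to test and 1 was called lower, with sums of 30.5 to 45.9 in TKO and 59.6 to 65.9 in DKO and Cd3e at 0.

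All 8 markers of dividing cells were called lower, from 508 to 2041 summed normalized counts in TKO against 5018 to 10820 in DKO. Per 100 of these counts the members were higher in TKO, at 225, 127 and 66.0 against 29.0, 40.7 and 57.0 in DKO. The 8 rod markers summed to 344800 to 698000 in TKO and 117100 to 222600 in DKO. Of 6 lens genes 2 were called higher, with sums of 345 to 2147 against 92.8 to 94.97, and of 7 genes of the retinal pigment epithelium 1 was called higher. Scaled by lymphocyte and granulocyte, pericyte, Muller glia, rod, lens or pigment epithelium genes, the members were lower in every TKO retina than in every DKO retina. The Muller glia, rod and lens sums were themselves higher in every TKO retina. Dividing the members by those sums could therefore only give lower values in TKO. The part of these cells in the members' change was not tested.

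**Figure D4:**
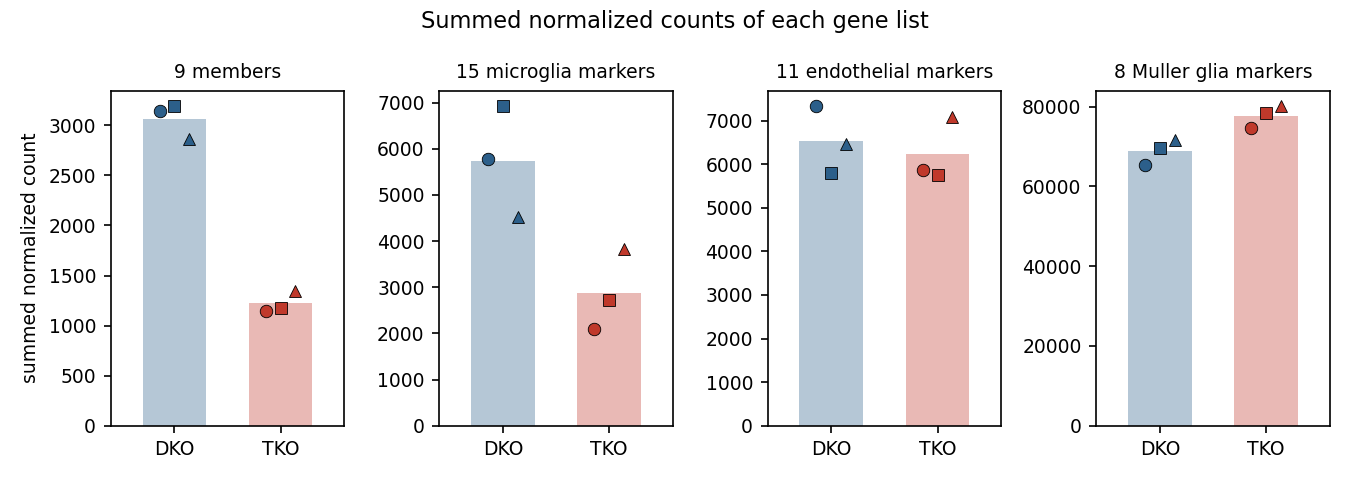
Summed normalized counts of the 9 members and of the microglia, endothelial and Muller glia markers in DKO (blue) and TKO (red), where bars are group means and points are the 3 retinae, with the marker shape giving the replicate. Members and microglia markers are lower in every TKO retina than in every DKO retina (1144 to 1347 against 2862 to 3189, and 2095 to 3839 against 4516 to 6918), while the endothelial sums overlap.

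The members lie on 5 chromosomes. The IFIT genes share chromosome 19 with the deleted gene Hells (chr19:38930915-38971051), at a distance of 4.28 Mb. Among the other genes within 5 Mb of Hells, 6 of 80 tested were called lower (7.5%) and 1 higher, with a median log2 fold change of 0.02. Within 1 Mb of the IFIT genes 1 of 9 others was called lower, and within 0.5 Mb of the IFITM genes 2 of 37 others were.

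Across the 6 retinae, the genes whose levels followed the members' mean standardized level most closely, out of 14967 ranked, were Brpf1, Lgals9, Leprot, B2m and Bst2, with Pearson's r between 0.9969 and 0.9998. These points share their libraries and fall into 2 genotypes, so r is a description with no test. Likeness of pattern did not mean likeness of size: Brpf1, with the highest r, had a log2 fold change of -0.20 (adjusted p = 0.0859), whereas Bst2, which encodes tetherin, was at -2.03 (adjusted p = 0.00193) and Lgals9 at -1.55 (adjusted p = 0.00419).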

How the data were processed

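Whole-retina RNA (TruSeq Stranded mRNA, paired-end) was measured in 3 TKO and 3 DKO retinae, grouped by the sample titles. The deposited values are raw counts per gene, made by the authors; their methods name STAR and HTSeq, the submitters' processing notes name TopHat2 and featureCounts, and both name GRCm38. The strand setting is not given in the sources used here, and reads with more than 1 alignment were allowed, so near-identical and overlapping genes are less certain. The study gives 3 retinae per genotype and the count columns carry a different number each, but the sources used here do not state outright that they came from separate animals; if they did not, p-values measure only the spread between these samples.

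Genes with a total of at least 10 counts were tested on the whole table with edgeR 4.0.16 in R 4.3.3 (TMM, quasi-likelihood F test, Benjamini-Hochberg over 16904 genes), and every adjusted p in the text comes from it unless another tool is named. DESeq2 1.42.0 was an alternative and gave the size factors of the mean count used in calls. Standard errors were obtained from the log2 fold change and its F statistic. On simulated data, the test called all 200 genes changed by a log2 fold of 2 with the correct sign, and also 1 of the 16571 genes left unchanged. The simulation gave every gene the same scatter and changed only genes with higher mean counts. Its fold was larger than that of every member but Ifi44. It therefore checks that the procedure runs correctly and does not measure power or error on these retinae. Ratios within a library used counts plus 0.5. Counting intervals and the floor of 3 counts cover counting error only. Coordinates and exon lengths were read from GENCODE M21 (GRCm38), a different release from the authors'; 94.5% of symbols matched it.

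The members and lists were chosen with earlier results of these data known. All members, listed relatives with at least 10 counts, Hells, by role the 2 most abundant pathway genes and the 2 called genes of smallest p, all receptors, transducers and regulatory factors but 1 that is not reported here, and the 5 genes most like the members were named; Ifitm6, Ifi27l2b and the ligands were added because of their low counts, and the markers named were added after their values were seen.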

Additional observations from a re-analysis of the deposited data

How the results depend on the processing

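With 3 retinae a group, 1 library can decide a call. Of 140 fits of the 9 members and Ifit3b under 14 alternatives, 123 kept their direction and side of the adjusted p, 16 kept the direction only and 1 reversed (Ifitm1, 0.18 with DKO replicate 3 left out). Leaving out 1 retina gave 5 to 7 of 9 members called lower, 30 to 48 pathway genes and 312 to 1024 of all genes; the last was 491, 312, 360 and 350 with TKO1, TKO2, DKO1 or DKO2 left out, and Ifitm1 ranged from -1.19 to 0.18. All genes called lower were 1556 by adjusted p alone and 292 at an adjusted p of at most 0.01. Scaling by total counts only moved the median of all genes from -0.01 to -0.17 and gave 8 members called. With the replicate block, 2 members (Ifit1 and Ifitm3), 23 pathway genes and 75 of all genes were called lower. The replicate numbers share only a number: deviations of same-numbered retinae correlated at 0.0739, -0.0485 and -0.169 over 15013 genes, and TKO replicates 2 and 3 correlated best with another number. The cause of these changes was not tested. Per kb of the longest transcript, the DKO levels of Ifi44, Ifi27 and Ifi35 were 25.6, 334 and 142.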
